A study of Mus musculus with 12 samples.

Results

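mmu-miR-489 and mmu-miR-455, below miR-489 and miR-455, are mouse microRNAs (miRNAs) whose genes lie inside protein-coding genes, Calcr for miR-489 and Col27a1 for miR-455. They were taken by name from the array, and they are 2 of the 696 mouse miRNAs that it measures. They were chosen by their detection marks and total signals, with no detection on any array at day 1 of osteoclast culture and detection later, so every value that sets day 1 against a later day is given here as a description and was not tested. All cultures came from bone marrow of C57BL/6 male mice, 6 to 8 weeks old, from which cells positive for B220/CD45R or CD3 (B and T lymphocytes) had been removed. All cultures received M-CSF (30 ng/ml), a growth factor for macrophage precursors, together with RANKL (30 ng/ml), the cytokine that drives these precursors to fuse into bone-resorbing osteoclasts. RNA was collected after 1, 3, or 5 days, and 4 independent cultures per day were hybridized to 12 single-color arrays. Because there was no culture with M-CSF alone, time in culture and time with RANKL cannot be told apart.

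A miRNA inside a gene is often transcribed together with that gene and cut from the intron of its transcript. Calcr encodes the calcitonin receptor, through which calcitonin restrains bone resorption, and it is a widely used marker of late osteoclast differentiation. Col27a1 encodes a fibrillar collagen chain best known from cartilage. miR-489 is known for its role in quiescent muscle stem cells and miR-455 for its expression in cartilage, where it is studied together with chondrocyte differentiation. The arrays measure mature miRNAs only, so the host transcripts were not measured here.

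The mature sequences are shown because the probes start at their 3′ end and leave most of the seed of miR-489 and miR-455 unread. The seed at bases 2 to 8 (capitals) sets which targets a miRNA can pair with. The longest probe of miR-653 covers bases 2 to 21, its whole seed included. The mature sequences are from RefSeq, with positions on GRCm38.p6, and are written 5′ to 3′. The names with -3p and -5p give the arm of the hairpin from which each was cut.
miR-489 (miR-489-3p): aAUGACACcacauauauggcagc
miR-455 (miR-455-3p): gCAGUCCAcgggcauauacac
miR-455* (miR-455-5p): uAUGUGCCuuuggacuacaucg
miR-653 (miR-653-5p): gUGUUGAAacaaucucuacug
miR-425 (miR-425-5p): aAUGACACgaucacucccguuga
miR-455* comes from the other arm of the hairpin that gives miR-455, and miR-653 is the neighbor of miR-489 in Calcr. miR-425 is shown for its seed, which among 1679 mature mouse sequences was the 1 other that matched the seed of miR-489. These 2 sequences share their first 8 bases, and 12 of 23 bases agree at the same position. No other mature sequence in that table has the seed of miR-455.

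Mir489 lies at chr6:3721897-3722003 on the minus strand, within the bounds of Calcr (chr6:3685678-3764713, minus strand) and 42710 bases from the 5′ end of that gene. Mir653 (chr6:3721301-3721385, minus strand) lies in the same gene, 511 bases from Mir489. Mir455 lies at chr4:63256851-63256932 on the plus strand, within Col27a1 (chr4:63214009-63334991, plus strand) and 42842 bases from its 5′ end. The gene table used gives the bounds of genes without their exons, so the intronic position itself was not checked.

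Each miRNA has 20 spots per array, and the image software adds its probes to a total signal, a linear, background-subtracted intensity with an error estimate and a detection mark. Between 186 and 276 miRNAs were detected per array. The arrays of days 1 and 5 lay on slide 1 (scan 1) and those of day 3 on slide 2 (scan 2), so in each comparison with day 3 the slide and the day cannot be told apart. The fourth array of day 5 stood apart, with the fewest miRNAs detected (186) and larger signal errors. All 4 myeloid miRNAs listed as markers (miR-223, miR-142-3p, miR-142-5p, and miR-21) were detected on all 12 arrays.

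miR-489 went from no detectable signal at day 1 to a moderate signal at day 3 and a 5.02-fold higher one at day 5. At day 1 its total signal was -52.9, -4.33, -43.4, and -23.5 on the 4 arrays, with software errors between 16.3 and 35.2. At day 3 it was 405.1, 294.3, 353.1, and 340.5 (mean 348 ± 45.6, SD, n = 4). At day 5 it was 1964, 1534, 1712, and 1781 (mean 1748 ± 178, SD, n = 4). The lowest array of day 5 stood well above the highest of day 3 on these signals, which are not normalized. On that scale the 148 miRNAs detected on all arrays also rose from day 3 to day 5, by a median of 0.57 (log2). How many of all miRNAs separated without normalization was not computed. The separation from day 1 follows from the rule that chose miR-489. None of the 20 spots was well above background on any day 1 array, against 9 to 10 at day 3 and 10 to 12 at day 5.

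miR-455 was also without detectable signal at day 1, but its signals at days 3 and 5 overlapped. Its total signal at day 1 was -24.0, 9.58, -3.01, and 7.46, with software errors between 23.0 and 49.8. The arrays of day 3 gave 1556, 1440, 1500, and 1641 (mean 1534 ± 85.2, SD, n = 4), and for day 5 they were 1597, 1428, 1401, and 1427 (mean 1463 ± 90.2, SD, n = 4). The day 5 mean was 0.954 times that of day 3. All 20 spots were well above background on each array of both days.

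**Figure D1:**
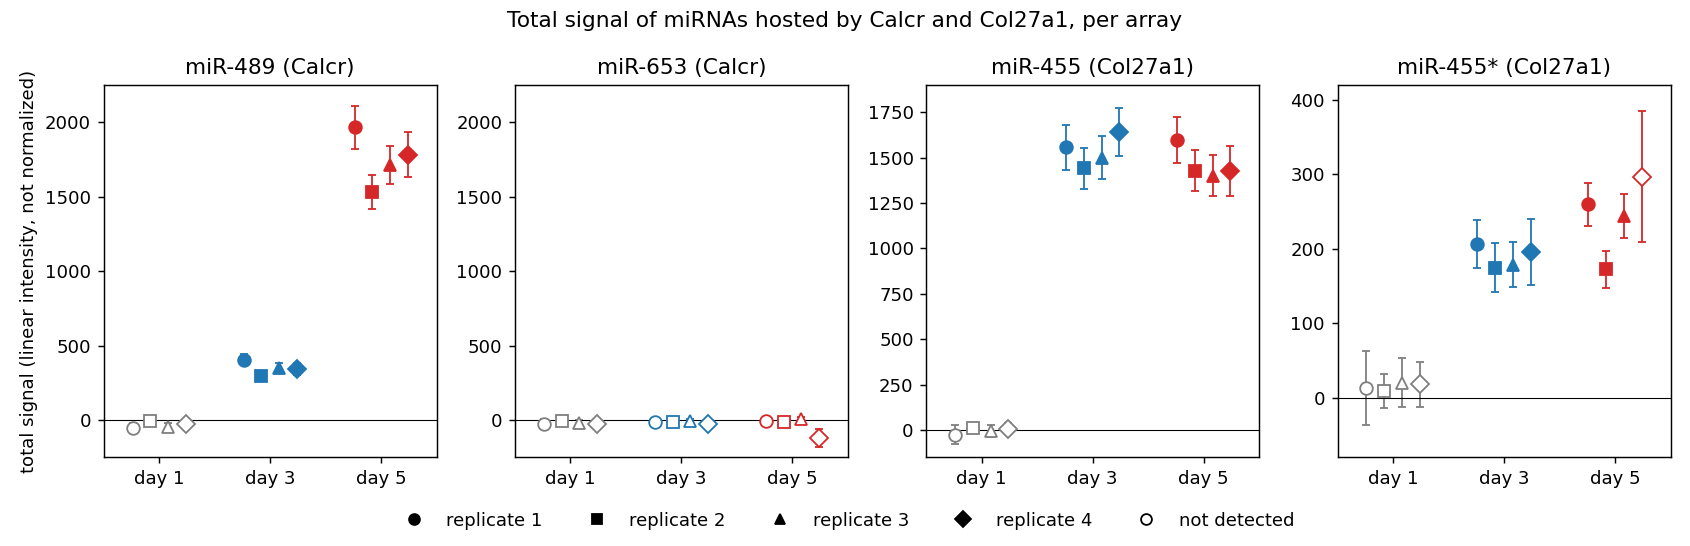
Total signal (linear intensity, not normalized) on each of the 12 arrays for the miRNAs of Calcr and Col27a1, by day. Symbols mark the replicate, bars are the error given by the image software, and open symbols are arrays without detection; miR-489 rises again between days 3 and 5 (348 to 1748), miR-455 does not (1534 to 1463), and miR-653 stays at the background throughout.

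To compare days, quantile normalization, which gives every array the same distribution of values, was applied to the total signals of 334 miRNAs, namely those with a detection mark on any of the 12 arrays. The result was raised to a floor of 1 where lower, and converted to log2. On this scale both miRNAs were at the floor on all 4 day 1 arrays. A miRNA undetected at day 1 has no measured level there, so its day 1 value was replaced by the 5th percentile of the signals detected on the same arrays. Set against that value, miR-489 was 6.62-fold higher at day 3 and 27.0-fold higher at day 5, and miR-455 was 31.9-fold and 22.2-fold higher. The size of these differences depends on how signals near the background are treated. With normexp background correction (offset 50), the log2 differences from day 1 were 1.85 at day 3 and 3.47 at day 5 for miR-489, and 3.59 and 3.1 for miR-455, which are smaller folds than those above for both miRNAs. With a floor of 10 in place of 1 they were 5.54 and 7.57 for miR-489 and 7.81 and 7.29 for miR-455. In the same fit, 15.6% of the 334 miRNAs were higher by more than 2-fold at day 3 than at day 1 (limma, Benjamini-Hochberg adjusted p under 0.01) and 24.3% at day 5 than at day 1.

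The rule that chose the miRNAs set no direction or size for a change from day 3 to day 5, so this was tested. It did require detection later, and earlier results of these data were known, so these tests are not independent of the choice. The day 3 arrays lay on the other slide, which cannot be told apart from the day. The fit shares its estimate of the spread with day 1, where all 4 values of either miRNA were at the floor and had no spread, so each difference is also given from a fit of days 3 and 5 alone. The normalized log2 signal of miR-489 was 8.86 ± 0.11 at day 3 and 10.89 ± 0.11 at day 5 (SD, n = 4). It rose by 2.03 on the log2 scale, 4.08-fold (SE 0.08, 95% interval 1.85 to 2.20, adjusted p = 5.70e-08 by limma). Exchanging the day labels of these 8 arrays in every possible way (exact permutation test, two-sided) gave p = 0.0286, the smallest p that this design allows. All arrays of day 5 lay above all of day 3, as they did for 22.5% of the 334 miRNAs. Among all miRNAs tested, 14.7% were higher at day 5 than at day 3 at this threshold, and 5.99% were also higher by more than 2-fold. Fitted on days 3 and 5 alone, the rise was 1.85 (SE 0.08, adjusted p = 1.73e-05 by limma). Without the fourth array of day 5 the rise was 1.98 (adjusted p = 1.59e-07).

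miR-455 moved the other way after normalization, by less than 2-fold. Its normalized log2 signal was 11.13 ± 0.16 at day 3 and 10.61 ± 0.14 at day 5 (SD, n = 4). It fell by 0.52 on the log2 scale (SE 0.09, 95% interval -0.74 to -0.31, adjusted p = 0.00155 by limma), where 10.8% of miRNAs were lower at this threshold. The exact two-sided permutation test gave p = 0.0286, with all arrays of day 5 below all of day 3, as for 16.8% of the 334 miRNAs. This fall rests on the scaling between arrays: without normalization the difference was -0.069 (adjusted p = 0.957), and in a fit of days 3 and 5 alone it was -0.069 without normalization (adjusted p = 0.568) and -0.53 with it (SE 0.11, adjusted p = 0.00594).

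Without normalization, the 148 miRNAs detected on all 12 arrays rose by a median of 0.57 on the log2 scale from day 3 to day 5, against 0.05 after quantile normalization. Relative to these medians, miR-455 changed by -0.64 and -0.58, and miR-489 by 1.76 and 1.97. Before normalization, the signal of miR-455 thus overlapped between these days while the median of the detected miRNAs was higher on the day 5 arrays.

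The late rise of miR-489 ranked second among the 165 miRNAs that had a detection mark on each of the 8 later arrays. The highest was miR-199a-3p with 2.13 (adjusted p = 4.17e-05), and the next after miR-489 was miR-342-3p with 1.65 (adjusted p = 9.85e-06). The 165 changes ran from -1.46 to 2.13 with a median of 0.06, and miR-455 ranked 141 from the top. Over all 334 miRNAs tested, including those without detection on some of these arrays, miR-489 ranked 17.

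**Figure D2:**
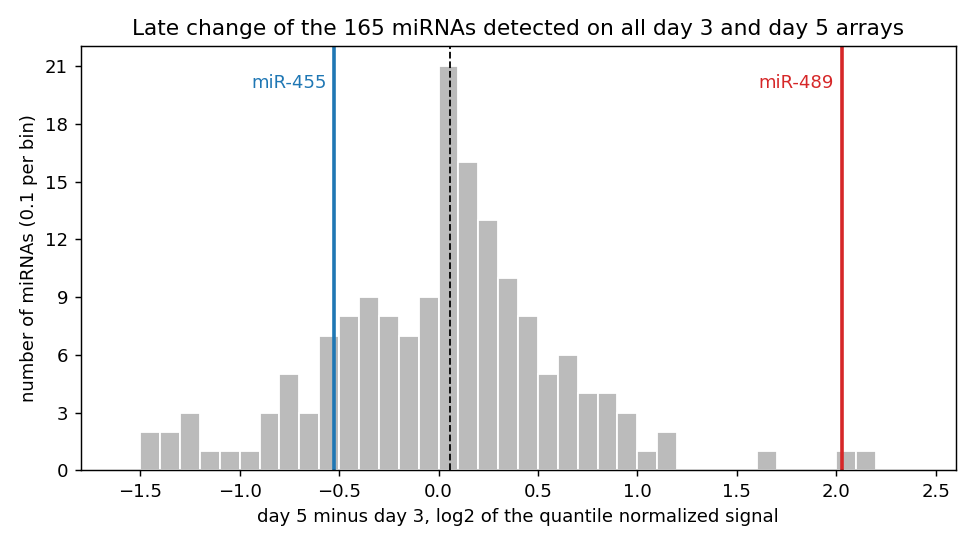
Distribution of the day 5 minus day 3 difference (log2 of the quantile normalized signal, in bins of 0.1) over the 165 miRNAs with a detection mark on each of these 8 arrays. Colored lines mark miR-489 (2.03) and miR-455 (-0.52), and the dashed line is the median (0.06); miR-489 lies apart from the bulk, and miR-455 lies within its lower part.

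A ratio of 2 miRNAs on the same array needs no scaling between arrays and shows whether their signals changed unequally, although its absolute value has no meaning because probes differ in brightness. It does not remove a slide effect that differs between probes, and slide and day cannot be told apart here. The log2 ratio of miR-489 over miR-455 was -2.15 ± 0.16 at day 3 and 0.25 ± 0.10 at day 5 (SD, n = 4). It rose by 2.40 (SE 0.10), or 5.28-fold, with no overlap between the days. The exact two-sided permutation p was 0.0286 (0.0429 after Benjamini-Hochberg adjustment over 3 pairs). These ratios were added after the values had been seen.

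miR-455*, the strand cut from the other arm of the Mir455 hairpin, was likewise undetected at day 1 and detected on most later arrays. Its total signal at day 1 was 12.9, 8.80, 20.1, and 18.1, and it was detected on none of these arrays. At day 3 it was 207, 174, 179, and 196, detected on all 4, and at day 5 it was 260, 172, 244, and 297, with the last (the fourth array, with a software error of 88.1) not marked as detected. The later days overlapped, and this miRNA was detected on 7 of 8 later arrays, whereas miR-489 and miR-455 were detected on all 8.

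The normalized difference of miR-455* between days 5 and 3 was -0.17 (SE 0.08, 95% interval -0.35 to 0.01), with an adjusted p of 0.139 by limma and an exact permutation p of 0.143. Its sign turned without normalization, with a difference of 0.34 that did not pass the threshold either (adjusted p = 0.423). The within-array log2 ratio of miR-455* over miR-455 was 0.41 higher at day 5 (SE 0.17), a difference that did not pass the exact permutation test (p = 0.0857, adjusted over 3 pairs 0.0857). In contrast, the ratio of miR-489 over miR-455* rose by 1.99 (SE 0.13, exact permutation p = 0.0286, adjusted 0.0429).

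**Figure D3:**
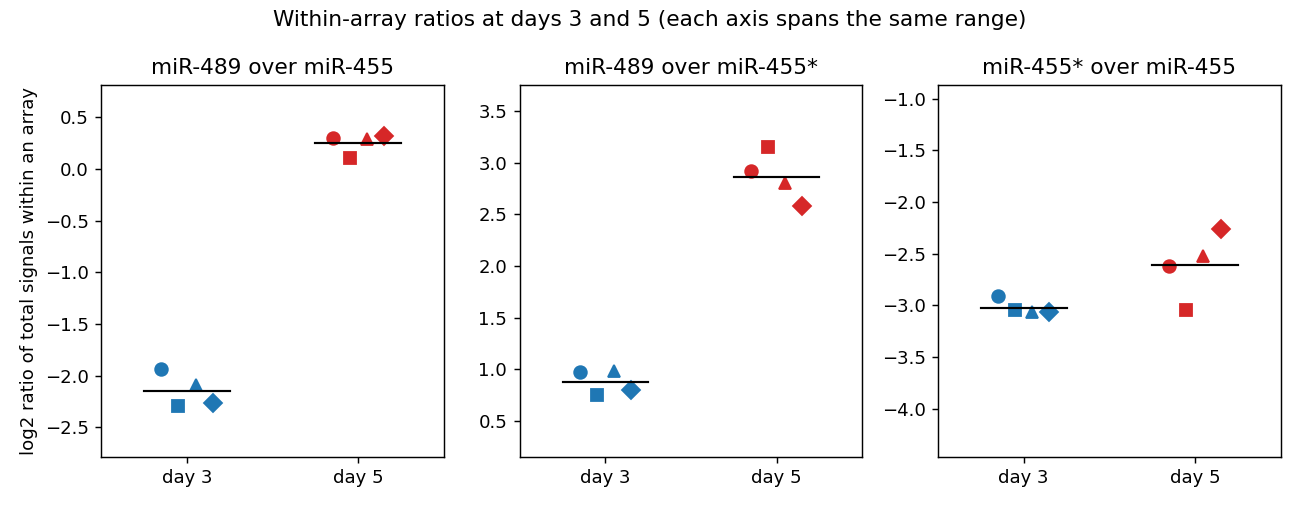
Log2 ratio of the total signals of 2 miRNAs on the same array, for the 4 arrays each of days 3 and 5 (circle, square, triangle, and diamond are replicates 1 to 4; lines are means). Both ratios with miR-489 on top rise without overlap (by 2.40 and 1.99), while the ratio of the strands of the Mir455 hairpin overlaps between the days (0.41).

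miR-653, whose hairpin lies in the same host gene and on the same strand as Mir489, was not detected on any of the 12 arrays. Its total signal ranged from -121 to 4.69 and did not exceed its own software error on any array. None of its 20 spots was well above background on any array, so it was not among the miRNAs tested. On the same arrays miR-489 was detected on 8 of 12. Probes of 2 miRNAs can differ in brightness, so this does not give the relative amounts of the 2 miRNAs.

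The probe sequences show which part of each miRNA was read. The probes are complementary to the 3′ end of the miRNA and grow by 1 base at a time toward the seed, and capitals mark the bases added to the shortest probe.
miR-489, 14 bases: gctgccatatatgt
miR-489, 15 bases: gctgccatatatgtG
miR-489, 16 bases: gctgccatatatgtGG
miR-489, 17 bases: gctgccatatatgtGGT
miR-455, 15 bases: gtgtatatgcccgtg
miR-455, 16 bases: gtgtatatgcccgtgG
The longest probe covers bases 7 to 23 of miR-489 and bases 6 to 21 of miR-455, so that most of the seed was not read.

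The signal of miR-489 came from its longest probes. The probe of 17 bases gave a mean spot signal of 756 ± 101 at day 3 and 3641 ± 391 at day 5 (SD, n = 4 arrays), a 4.82-fold rise. With 1 base fewer the means were 359 ± 35.1 and 1807 ± 193, a 5.03-fold rise. For both probes the days did not overlap. Their folds were close to that of the total signal, which follows from its being made from these probes. The probe of 14 bases had 0 of 20 spots well above background at either day, and that of 15 bases had 0 of 20 at day 3 and 3 of 20 at day 5. The detection of miR-489 therefore rested on 2 of its 4 probes, whereas both probes of miR-455 were well above background in all of their spots.

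For miR-455 the probe of 15 bases gave 725 ± 39.6 at day 3 and 653 ± 56.7 at day 5, and that of 16 bases gave 1681 ± 75.2 and 1638 ± 158 (SD, n = 4 arrays). The days overlapped for both probes, with day 5 over day 3 at 0.901 and 0.974.

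**Figure D4:**
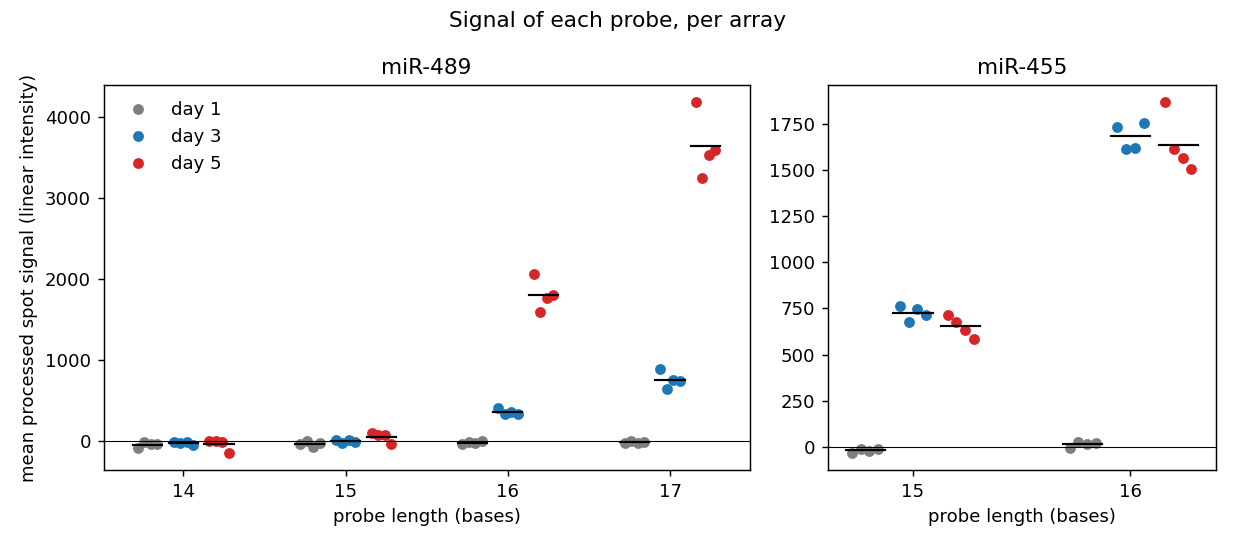
Mean processed spot signal (linear intensity) of each probe of miR-489 and miR-455 on each array, by probe length and day, with a line at the mean of 4 arrays. For miR-489 the probes of 16 and 17 bases rise 5.03-fold and 4.82-fold from day 3 to day 5 and the shorter ones stay near the background; both probes of miR-455 are at similar levels on the later days.

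miR-425, which shares the seed of miR-489 and therefore the pairing that seed allows, was detected on all 12 arrays. Day 1 had a mean total signal of 2699 ± 455, day 3 one of 1446 ± 93.5, and day 5 one of 2232 ± 192 (SD, n = 4). Normalized, its log2 signal was 10.89 ± 0.04, 11.11 ± 0.11, and 11.32 ± 0.18 on these days. The difference between days 5 and 3 was 0.21 (SE 0.10, 95% interval -0.0032 to 0.43, adjusted p = 0.128 by limma), and it ran from -0.11 to 0.62 over the other settings tried. It passed the threshold without normalization, with an adjusted p of 0.00121 for days 3 and 5 alone. The direction of this difference thus depends on the scaling, unlike that of miR-489. A miRNA with this seed was thus detected at day 1, when miR-489 was not.

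Detection on no array of day 1 and on all arrays of days 3 and 5 was found for 8 miRNAs, 1.15% of the 696. Besides miR-489 and miR-455 they were miR-96, miR-182, and miR-183, which are transcribed as 1 cluster, together with miR-193b, miR-200b, and miR-34b-5p. Total signals of 5 of these other 6 were higher at day 5 than at day 3 without overlap before normalization (miR-96 at 547 to 684 and then 883 to 1126, for example), and those of miR-193b overlapped. The share of all miRNAs that separated in this way was not computed, so this count does not set these miRNAs apart from the rest. On that scale the 148 miRNAs detected on all arrays rose by a median of 0.57 (log2). After normalization, the threshold between days 3 and 5 was passed by 14.7% of the 334 miRNAs tested as higher and by 10.8% as lower. None of these 6 passed it. Their differences ran from -0.34 for miR-193b to 0.33 for miR-34b-5p, and miR-96 was nearest to the threshold with 0.27 (adjusted p = 0.0102 by limma). For miR-193b (SE 1.06) and miR-34b-5p (SE 0.88) the error was too large for the test to tell. That error is shared with day 1, where total signals near the background ran from 10.4 to 100 and from 2.59 to 44.5. A fit of days 3 and 5 alone is not given for these 6, so their errors and those of miR-489 and miR-455 are not alike. Of the 6, miR-34b-5p was the 1 that lies within a protein-coding gene on the same strand (Hoatz). With detection on at least 1 array of day 5 in place of all later arrays, 44 miRNAs were undetected at day 1 and detected later.

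**Figure D5:**
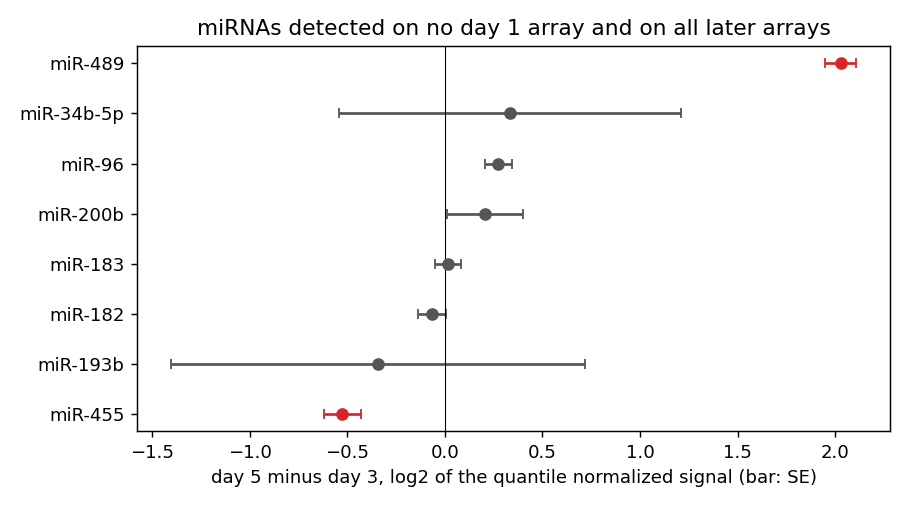
Day 5 minus day 3 difference (log2 of the quantile normalized signal) with its SE from limma for the 8 miRNAs detected on no day 1 array and on all 8 later arrays. miR-489 (2.03) and miR-455 (-0.52), in red, lie at the ends, and the other 6 lie between -0.34 and 0.33. The SE is from the fit that includes day 1.

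The miRNAs whose normalized profile over the 12 arrays was most like that of miR-489 were miR-125b-5p (Pearson r = 0.997), miR-99a (0.996), miR-200a (0.996), miR-23b (0.995), and miR-378 (0.992). Of these, miR-200a was likewise undetected on all day 1 arrays, and the other 4 were detected on all of them. For miR-455 the closest were miR-455* (r = 0.999), miR-182 (0.999), miR-185 (0.999), miR-183 (0.999), and miR-23a (0.999). miR-489 and miR-455 had r = 0.976 with each other. These values describe arrays that fall into a low day 1 and higher later days, and r exceeded 0.9 for 62 of 333 other miRNAs with miR-489 and for 47 with miR-455, so the order among the closest carries little.

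Other miRNAs whose genes lie within a protein-coding gene on the same strand numbered 202 on the array, of which 113 were tested. From day 3 to day 5, 16 of these passed the threshold as higher and 9 as lower, with a median difference of 0.07. Over all 334 miRNAs tested 49 were higher and 36 lower, with a median of 0.00. Of the 696 array names, 551 were matched to a single mature sequence with a position, so the list is not complete.

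miRNAs known from other cell types were followed on the same arrays, since in a culture of mixed cells a change in the number of cells of a type and in the RNA per cell cannot be told apart. The summed total signal of the list of 5 stromal miRNAs was also higher at day 5 than at day 3. It lay between 494 and 896 on the day 1 arrays, between 403 and 529 on those of day 3, and between 2432 and 3545 on those of day 5. This sum is not normalized, and the day 3 arrays were dimmer. Within the list, after normalization, miR-199a-3p rose by 2.13 (adjusted p = 4.17e-05 by limma) and miR-199a-5p by 2.09 (adjusted p = 1.27e-05) from day 3 to day 5. The other 3 did not pass the threshold, although their differences were also positive. These were 3.03 for miR-143, 3.49 for miR-145, and 2.39 for miR-214 (adjusted p = 0.0180, 0.0311, and 0.149 by limma). Of them, miR-145 was not detected on any array of either day. miR-143 and miR-214 were detected on no array of day 3 and on 3 of 4 of day 5. At day 1, miR-199a-3p and miR-199a-5p were detected on all 4 arrays. Their mean total signals were 445 and 136 at day 1, against 1453 and 653 at day 5. The part of stromal cells in the rise of miR-489 was not tested.

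The chondrocytic list, miR-140 and miR-140*, was detected on all 12 arrays, and its summed signal lay between 6129 and 9423 at day 1, between 4848 and 5769 at day 3, and between 8554 and 10229 at day 5. miR-140 rose by 0.37 from day 3 to day 5 (adjusted p = 0.00669 by limma), and miR-140* differed by 0.10 (adjusted p = 0.477). These sums are not normalized, and the day 3 arrays were dimmer overall. The part of chondrocytic cells in the values of miR-455 was not tested. Of the myogenic miRNAs, 3 of the 4 listed were analyzed, and miR-133a and miR-133b were not detected on any array while miR-206 was detected on 1 array of day 1 and on none of the 8 later arrays.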

How the data were processed

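RNA from 4 independent cultures per time point was hybridized to 12 single-color arrays (Agilent mouse miRNA, 1 culture per array). The scanner files deposited by the authors were written by Feature Extraction 9.5.3.1 and hold a linear intensity for each spot and miRNA, after subtraction of the background but before any normalization. The total signal per miRNA and its detection mark come from these files. The log2 values deposited by the authors, quantile normalized in GeneSpring and present exactly where a miRNA was detected, served as an alternative.

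miR-489 and miR-455 were found by their names in the scanner files. They, and the lists used beside them, were chosen with earlier results of these data known. Quantile normalization was applied to the total signals of the 334 miRNAs with a detection mark on any array, followed by a floor of 1 (9.28% of values) and the log2. With limma 3.58.1 in R 4.3.3, 1 mean per day was fitted (lmFit and eBayes) with Benjamini-Hochberg adjustment over all 334 and a threshold of 0.01, and 2-fold means a difference over 1 on the log2 scale. The fit was tested on simulated data. These had no floor and only changes larger than that of miR-455, so they do not stand for the floored day 1 values here. Other values and exact permutation tests used Python 3.11.15 with numpy 2.4.6, pandas 2.3.3, and scipy 1.17.1, and figures used matplotlib 3.10.9. The number of arrays, 4 per day, limits the precision.

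The miRNAs named are miR-489, miR-455, other miRNAs of their hosts, miRNAs that share a seed with them, the 5 with the highest Pearson r to each, those with the same detection pattern, and marker lists: myogenic (miR-1, miR-133a, miR-133b, miR-206), chondrocytic (miR-140, miR-140*), stromal (both miR-199a strands, miR-214, miR-143, and miR-145), erythroid (miR-486, miR-451, and miR-144), lymphoid (miR-181a, miR-181b, and miR-150), endothelial and megakaryocytic (miR-126-3p), and myeloid. miR-342-3p was named after its value had been seen. The other strand of Mir489, miR-1, and miR-486 were not analyzed here. Alternatives covered the filter, the scaling, the signal, the background correction, the deposited values, the floor, an intensity trend, the replicate number, and each array left out. Fits of days 3 and 5 alone and the within-array ratios were added after the data had been seen.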

Additional observations from a re-analysis of the deposited data

Results flagged for a closer look

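Of the 6 groups of 4 arrays examined for a single array far from the rest (miR-489, miR-455, and miR-455* at days 3 and 5, normalized log2 signal), 2 were past the 95% limit of Dixon's test, and chance alone passes it in about 1 of 20 groups. For miR-489 at day 5 the fourth array had 11.06 while the other 3 had 10.83 to 10.85, so the gap was 0.894 of the range. This is the array with the fewest miRNAs detected (186), and its total signal before normalization, 1781, lay between those of the other 3. For miR-455 at day 3 the first array had 10.90 against 11.19 to 11.25, a gap of 0.841 of the range, and its total signal, 1556, also lay between those of the other 3. Without these arrays the differences between days 5 and 3 were 1.98 for miR-489 and -0.59 for miR-455.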

How the results depend on the processing

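The late rise of miR-489 kept its direction and stayed past the threshold under all 16 alternatives (1.60 to 2.33, adjusted p from 1.32e-08 to 3.11e-05) and with each array left out (1.98 to 2.09). The fall of miR-455 kept its direction under all 16 but passed the threshold under 9, and with each array left out it lay between -0.59 and -0.48 and passed. It did not pass with no filter on detection (-0.52, adjusted p = 0.328), with scaling to the 75th percentile, over miRNAs with a detection mark on each array (-0.80, adjusted p = 0.429) or over all miRNAs (-0.56, adjusted p = 0.590), with scaling to their median (-0.49, adjusted p = 0.635), without normalization (-0.069, adjusted p = 0.957), with an intensity trend (-0.52, adjusted p = 0.0114), or with days 3 and 5 alone without normalization (-0.069, adjusted p = 0.568). Scaling to the 75th percentile with days 3 and 5 alone gave -0.80 (adjusted p = 0.000762, SE 0.10), where the fit that includes the day 1 values near 0 had an SE of 0.69. In the fit of all 3 days, the 4 floored day 1 values of either miRNA add no spread to the error. The fits of days 3 and 5 alone were chosen after seeing the data. The difference of miR-455* ran from -0.47 to 0.34 over the alternatives and never passed. The within-array ratio of miR-455* over miR-455 lay between 0.29 and 0.56 with each array left out, the days no longer overlapped without the second array of day 5, and the deposited values gave 0.040 in place of 0.41. The count of miRNAs undetected at day 1 and detected on all later arrays was 8. With detection defined as at least 50% of the spots above background, the count was 10. By that definition miR-489 was not detected on the fourth array of day 3 (9 of 20 spots). The count was 44 when 1 array of day 5 was enough. miRNAs past both thresholds between days 5 and 3 numbered 35, and 17 with normexp background correction, between days 3 and 1 they numbered 117 and 63, and between days 5 and 1 they numbered 156 and 97.

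The replicate number as a block (replicate block) gave 2.03 (adjusted p = 1.45e-05) for miR-489 and -0.52 (adjusted p = 0.00301) for miR-455. The numbers were not taken to pair the arrays, but the values do not settle whether they do. Of the correlations of deviations between same-numbered arrays, 7 of 12 were over 0.1 (from -0.435 to 0.699). Also, 7 of 12 arrays correlated best with their own number. The permutation tests treated the arrays as unpaired. The methods' analysis of variance over the 3 days was not run for these miRNAs, since it includes the day 1 values that chose them, and the deposited values give no day 1 value for either. miRNAs near the background are limited by their signal, which here touches day 1 and miR-455*.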

Other observations

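The summed total signal of the erythroid miRNAs analyzed (miR-451 and miR-144) lay between 29020 and 57393 on the day 1 arrays, between 810 and 1771 at day 3, and between 124 and 295 at day 5. miR-126-3p, known from endothelial cells and megakaryocytes, gave 608 to 1337 at day 1 and was not detected on any later array. The lymphoid miRNAs summed to between 2471 and 3336 at day 1, between 1267 and 1525 at day 3, and between 1594 and 2026 at day 5. The myeloid miRNAs summed to between 185703 and 204612, between 134737 and 150162, and between 159370 and 180624 on these days. Their part in the values of miR-489 and miR-455 was not tested.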
